A study of Zea mays with 33 samples.

Results

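Expression of 5 genes of nitrate uptake and reduction was compared among 11 tissues of the maize inbred line B73. The genes were 2 transporters of the nrt2 family (Zm00001d054057 and Zm00001d054060), 2 nitrate reductases (Zm00001d049995 and Zm00001d018206) and 1 nitrite reductase (Zm00001d052164). They were taken by ID and stated function from the 46430 genes in the count files. All 5 IDs were found, and their functions are those given with the IDs, since no annotation of the AGPv4 genome was used here. RNA was sequenced from 33 libraries, 3 per tissue. The labels state that no treatment was given, and every sample title carries the letters WW, whose meaning they do not give. Roots (DAS4_R) and hypocotyls (DAS4_HY) were cut from seedlings 4 days after sowing, grown in perlite away from direct light, and each library pooled 3 plants. The V2 seedlings of the greenhouse gave green expanded leaf blades (V2_LF) and white immature leaf parts (V2_LF-I). Greenhouse plants at pollen shed gave the internode below the ear (PS_IN1), the midrib-free blade of the last leaf with a ligule (PS_LF), the tassel with fresh pollen (PS_TAS), growing silks (PS_SILK) and the unpollinated ear (PS_EAR), and each greenhouse library came from 1 plant. Field plants gave whole seeds 35 days (DAP35_S) and 12 days (DAP12_S) after pollination according to the labels, whereas the methods text gives a later age for the younger seed, and each seed library pooled seeds of 1 ear. RNA of the older seed was extracted with phenol and chloroform and that of the younger seed with Trizol and a column kit, so that age and extraction cannot be told apart in the seeds. Growth condition and organ cannot be told apart either between seedling, pollen-shed and field samples.

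Plants take up nitrate through membrane transporters, of which the NRT2 family is known for uptake at low external concentrations, chiefly in roots. Nitrate reductase turns nitrate into nitrite in the cytosol. Nitrite reductase then turns nitrite into ammonium in plastids, with reduced ferredoxin as the electron donor, and in leaves this ferredoxin comes from photosynthesis. Both steps can take place in roots and in leaves, and transcripts of these genes are known to respond to nitrate and light.

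Between 15.8 and 42.9 M reads per library fell on genes (median 26.9 M), and replicates differed by more than sampling noise. Levels are given as CPM, counts per 1000000 reads on genes after scaling by TMM, a method that sets the bulk of the genes equal between libraries. The TMM factors differed by tissue, between 0.479 in V2_LF and 1.48 in PS_EAR. With library size alone, the median gene therefore moved by a log2 of 1.74 in DAS4_R against V2_LF, -1.09 in V2_LF against V2_LF-I, -0.95 in PS_TAS against PS_EAR, 0.71 in PS_LF against V2_LF, -0.61 in DAP35_S against DAP12_S, 0.53 in PS_IN1 against PS_LF, -0.50 in PS_SILK against PS_EAR and 0.01 in DAS4_R against DAS4_HY. Changes below are relative to the bulk of the genes, and calls that depend on this choice are named where they occur. Gene lists from the study's GO terms did not separate the tissue labels. The summed level of 8 genes annotated to light harvesting was 80.2 to 81.5 CPM in V2_LF and 80.9 to 95.5 CPM in PS_LF. These green blades were below all other tissues, and PS_SILK was at 412 to 490 CPM. For 8 genes annotated as nutrient reservoir, the sum was 225 to 302 CPM in the seeds and 247 to 256 CPM in DAS4_R. The lists were meant as a check of the labels, which failed, so the labels stand without a check by markers. In these bulk samples, fewer cells of a type and less RNA per cell cannot be told apart. Levels are compared between tissues and not between genes, because gene lengths were not used.

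Both transporters had few reads in every tissue, and in most tissues they were at or near the detection limit. Zm00001d054057 had 19 reads over all libraries, in 7 of the 33, and 15 of these reads were in roots. The root libraries held 6, 3 and 6 reads (0.109, 0.0808 and 0.154 CPM), and the hypocotyl libraries held 0 reads in all 3. Roots were thus at least 5.08-fold higher than hypocotyls, with a floor of 3 reads over the hypocotyl libraries (0.0225 CPM). The 4 remaining reads were spread over DAP35_S (replicates 2 and 3), DAP12_S (replicate 3) and V2_LF (replicate 3). The single read in V2_LF amounted to 0.104 CPM after scaling, above the lowest root library. The gene did not pass the filter on low counts and was not tested. Without that filter, the adjusted p of DAS4_R against DAS4_HY was 0.00646 in edgeR's quasi-likelihood test. In the 7 tissues with 0 reads, the floor of 3 reads allows levels between 0.0225 CPM in DAS4_HY and 0.0565 CPM in PS_TAS, for counting error only.

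Zm00001d054060 had 133 reads, in 20 of the 33 libraries. Roots held 11, 26 and 27 reads (0.200, 0.701 and 0.691 CPM) and hypocotyls held 2, 4 and 8 reads (0.0467, 0.0747 and 0.216 CPM). The lowest root library lay below the highest hypocotyl library, so the ranges overlapped. The gene was higher in roots (log2 fold change 2.23, SE 0.57, adjusted p = 0.00374), and the value was 2.98 without hypocotyl replicate 3. It reached the minimum count of the filter only in root and internode libraries, so it was tested through the tissues where it was highest. Without the filter, the adjusted p of roots against hypocotyls was 0.00721 in edgeR's quasi-likelihood test. The next level was that of the internode, with 9, 9 and 7 reads (0.313, 0.264 and 0.232 CPM), against 1, 1 and 0 reads in PS_LF (0.0335, 0.0469 and 0 CPM). All internode libraries were above all adult leaf libraries, and the difference passed edgeR's test (adjusted p = 0.00403, and 0.00627 without the filter). With 25 reads against 2, the ratio of the pooled levels was 9.29, and its 95% interval, from an exact binomial test of the reads and for counting error only, ran over 2.32 to 81.0.

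Seeds differed by age for this transporter. The older seed held 0 reads in all 3 libraries, against 7, 5 and 4 reads (0.203, 0.140 and 0.124 CPM) in the younger seed. It was at least 3.10-fold lower in the older seed, with 3 reads over the 3 libraries as the floor, and passed the test (adjusted p = 0.00459). Roots were at least 4.94-fold higher than V2_LF, which held 0 reads (adjusted p = 0.000265). V2_LF-I and PS_TAS were also at 0 reads in every library. In PS_TAS against PS_EAR, 0 reads stood against 2, 1 and 4 reads. The test called this difference (adjusted p = 0.0439), but the floor in the tassel, 0.0565 CPM, was as high as the mean in the ear, 0.0564 CPM, and no difference was detectable at this depth. The call was also lost in DESeq2 (adjusted p = 0.162), with no filter (0.0557) and without PS_EAR replicate 1 (0.0681), PS_EAR replicate 3 (0.111) or PS_TAS replicate 1 (0.0902), 2 (0.101) or 3 (0.0917). Silks held 1, 2 and 2 reads (0.0595 ± 0.0244 CPM, SD, n = 3), with a log2 fold change of 0.12 (SE 0.81) over the ear (adjusted p = 0.960). In order of the means, the neighbours whose ranges did not overlap were PS_IN1 and DAP12_S, and every other pair of neighbours overlapped. Multimapping reads, 1.57 to 4.66% of a library, are given to no gene in such counts, and whether the 2 transporters lose reads in this way was not tested.

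**Figure D1:**
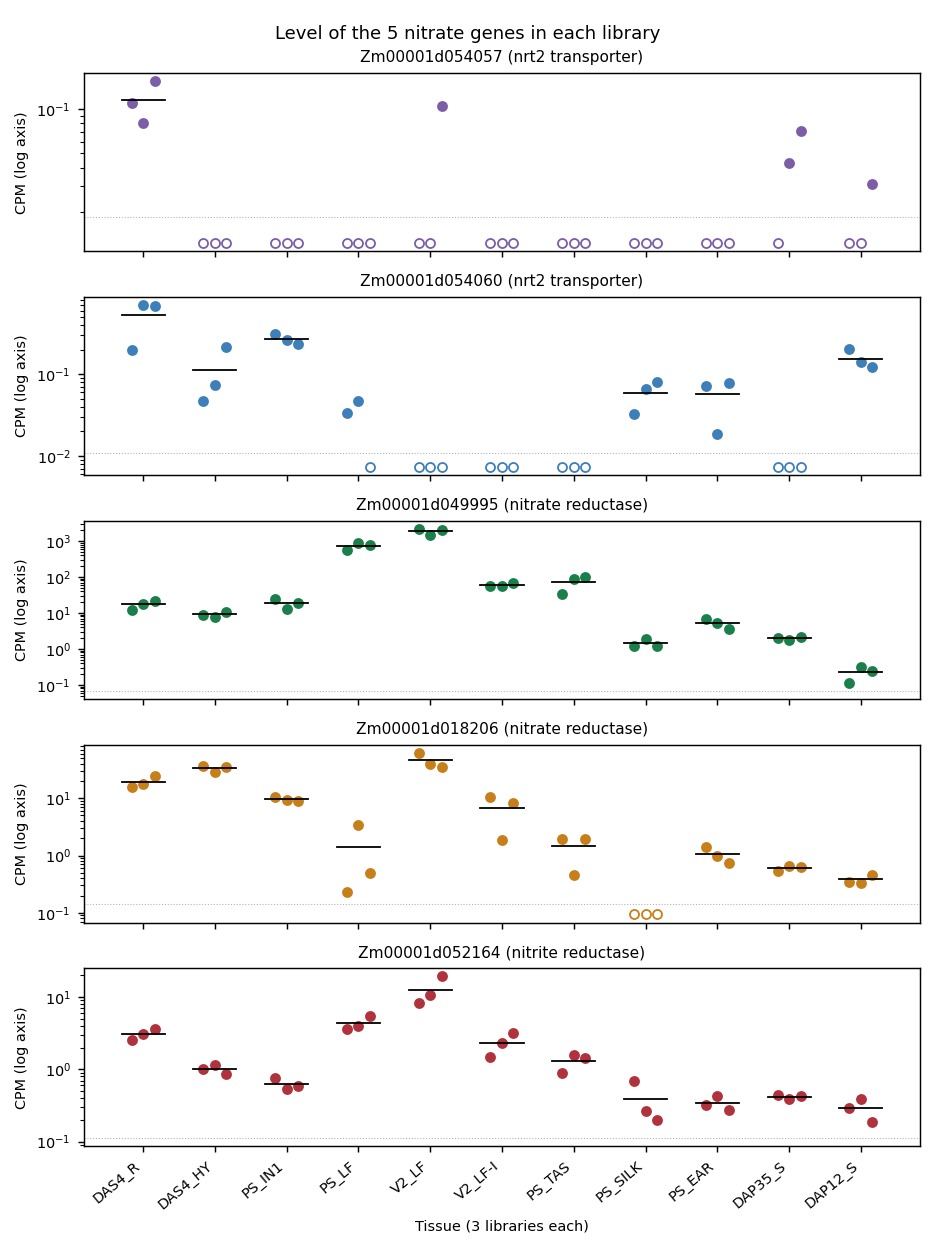
Level of each of the 5 genes in CPM (log axis, a separate scale for each gene) in the 33 libraries of 11 tissues. Points are libraries, and open points under the dotted line are libraries at 0 reads. Bars are means of tissues with reads in all 3 libraries. Zm00001d049995 and Zm00001d052164 were highest in all 3 V2_LF libraries with TMM, but their V2_LF ranges overlapped with PS_LF with library size alone. Zm00001d018206 had 0 reads in all 3 PS_SILK libraries.

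The nitrate reductase Zm00001d049995 was read in all 33 libraries, with 121371 reads. Green blades held most of its signal: V2_LF accounted for 66.8% and PS_LF for 26.6% of the sum of the 11 tissue means. These shares depend on the scaling. With library size alone, the means were 904 CPM in V2_LF and 607 CPM in PS_LF, and the next was 64.1 CPM in V2_LF-I. The V2_LF libraries were at 2180, 1457 and 2001 CPM, against 57.9, 57.7 and 67.0 CPM in V2_LF-I. All expanded blades were far above all immature leaf parts, a 30.9-fold difference (log2 fold change 4.95, SE 0.36, adjusted p = 3.49e-12). The log2 fold change was 3.82 with library size alone. The adult blades of PS_LF were at 576, 898 and 768 CPM, below every V2_LF library (log2 fold change -1.33, SE 0.31, adjusted p = 0.000849). With library size alone this last call was lost, with a log2 fold change of -0.57 (adjusted p = 0.122). The ranges then overlapped, at 698 to 1049 CPM in V2_LF and 493.5 to 713 CPM in PS_LF.

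Below the green blades, the levels of Zm00001d049995 spanned a wide range. Tassels were at 33.3, 87.3 and 98.9 CPM, against 6.79, 5.26 and 3.68 CPM in ears. The ranges were apart, and the gene was higher in tassels (log2 fold change 3.81, SE 0.34, adjusted p = 2.23e-10). The internode was at 24.3, 12.8 and 18.6 CPM and so 40.3-fold lower than PS_LF (log2 fold change -5.33, SE 0.37, adjusted p = 1.73e-12). Roots were at 12.1, 17.6 and 22.2 CPM, against 8.64, 7.99 and 10.9 CPM in hypocotyls. Every root library was above every hypocotyl library, by a log2 fold change of 0.92 (SE 0.31, adjusted p = 0.0191). This call was lost without root replicate 3 (log2 fold change 0.68, adjusted p = 0.118), hypocotyl replicate 1 (0.86, adjusted p = 0.0663) or hypocotyl replicate 2 (0.81, adjusted p = 0.0810). Compared with V2_LF, roots were lower by 109-fold (log2 fold change -6.76, SE 0.39, adjusted p = 1.68e-14). The log2 fold change was -5.29 with library size alone.

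Silks and seeds held the lowest levels of Zm00001d049995. Silks were at 1.24, 1.91 and 1.24 CPM, all below the 3 ear libraries (log2 fold change -1.82, SE 0.35, adjusted p = 9.46e-05). The older seed was at 2.05, 1.77 and 2.21 CPM, against 0.116, 0.307 and 0.248 CPM in the younger seed, from 4, 11 and 8 reads. The gene was higher in the older seed (log2 fold change 3.13, SE 0.47, adjusted p = 6.61e-06), and the 3 libraries of the younger seed were below all other libraries of the series. In the order of the 11 means, the ranges of neighbours overlapped for PS_TAS and V2_LF-I (60.9 ± 5.3 CPM, SD, n = 3), for PS_IN1 and DAS4_R, and for DAP35_S and PS_SILK. Other neighbours did not overlap.

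The other nitrate reductase, Zm00001d018206, had 10134 reads and another order of tissues. Its highest levels were in V2_LF (62.5, 40.2 and 34.7 CPM), hypocotyls (37.0, 29.2 and 35.6 CPM) and roots (15.9, 18.0 and 24.3 CPM). The order of these tissues depended on the scaling. With library size alone, hypocotyls were highest, at 39.4 to 48.5 CPM, and V2_LF was at 16.7 to 30.1 CPM and roots at 20.5 to 32.9 CPM. All root libraries were below all hypocotyl libraries, but the difference did not pass the test (log2 fold change -0.81, SE 0.52, adjusted p = 0.219). With the libraries of these organs alone in the fit, it did (log2 fold change -0.85, adjusted p = 0.00506). Against V2_LF, roots had a log2 fold change of -1.24 (SE 0.53, adjusted p = 0.0378), a direction that flipped to 0.23 (adjusted p = 0.693) with library size alone. This call was also lost without root replicate 1 (log2 fold change -1.11, adjusted p = 0.111), root replicate 2 (-1.17, adjusted p = 0.0946) or V2_LF replicate 1 (adjusted p = 0.141).

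Replicates of leaf tissues were far apart for Zm00001d018206. The expanded V2 blades were above the immature leaf parts, which had 10.5, 1.83 and 8.15 CPM from 204, 32 and 285 reads (log2 fold change 2.73, SE 0.56, adjusted p = 0.000131). In the same 3 immature libraries, Zm00001d049995 varied only between 57.7 and 67.0 CPM. PS_LF was at 0.234, 3.42 and 0.502 CPM, from 7, 73 and 9 reads, all below every V2_LF library (log2 fold change -5.07, SE 0.64, adjusted p = 6.61e-07). The internode, at 10.6, 9.28 and 8.83 CPM, was above all PS_LF libraries (log2 fold change 2.81, SE 0.61, adjusted p = 0.000301). PS_LF replicate 2 set the size of both values, which were -7.04 and 4.78 without it. The internode was thus lower than PS_LF for Zm00001d049995 and higher than PS_LF for Zm00001d018206.

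No read of Zm00001d018206 was counted in the 3 silk libraries, which allows a level of up to 0.0349 CPM, against 39, 54 and 37 reads in ears (1.41, 0.989 and 0.727 CPM). It was at least 28.0-fold lower in silks, with 3 reads over the silk libraries as the floor (adjusted p = 0.000247). In the same silk libraries, Zm00001d049995 had 38, 58 and 31 reads. Tassels were at 1.95, 0.455 and 1.96 CPM, with a log2 fold change of 0.49 (SE 0.65) over ears that did not pass the test (adjusted p = 0.510) and was -0.67 with library size alone. The older seed was at 0.535, 0.647 and 0.643 CPM, against 0.347, 0.335 and 0.465 CPM in the younger seed, from 9 to 15 reads in each library, and this difference did not pass the test either (log2 fold change 0.66, SE 0.81, adjusted p = 0.548). In the order of the means, the ranges overlapped between V2_LF and hypocotyls and along the chain of PS_IN1, V2_LF-I, PS_TAS, PS_LF and PS_EAR.

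The balance of the 2 nitrate reductases was compared by the log2 ratio of their reads within a library, from which scaling and a fixed difference in length drop out as far as differences between tissues go. The ratio of Zm00001d049995 over Zm00001d018206 was highest in PS_LF, at 9.90 ± 1.65 (SD, n = 3), and lowest in hypocotyls, at -1.89 ± 0.19 (SD, n = 3). V2_LF was at 5.38 ± 0.41, PS_TAS at 5.74 ± 1.72 and V2_LF-I at 3.48 ± 1.31. Ears were at 2.33 ± 0.07, the older seed at 1.68 ± 0.24, the internode at 0.91 ± 0.39 and roots at -0.18 ± 0.19. Zm00001d018206 had more reads than Zm00001d049995 in each library of roots, hypocotyls and the younger seed. The 6.37 ± 0.46 of silks rests on the 0.5 reads added to both genes, since 1 gene is at 0 there. Tissues differed in this ratio (F = 46.2 over 10 tissues with at least 20 reads of the pair in each library, permutation p = 1e-05, 1-sided, the smallest that 100000 permutations can give). The younger seed, with 12, 12 and 15 reads of Zm00001d018206 and 4, 11 and 8 of Zm00001d049995, did not reach 20 reads in each library and did not enter. No tissue reached 20 reads in each library for the nrt2 pair, and that ratio was not tested.

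**Figure D2:**
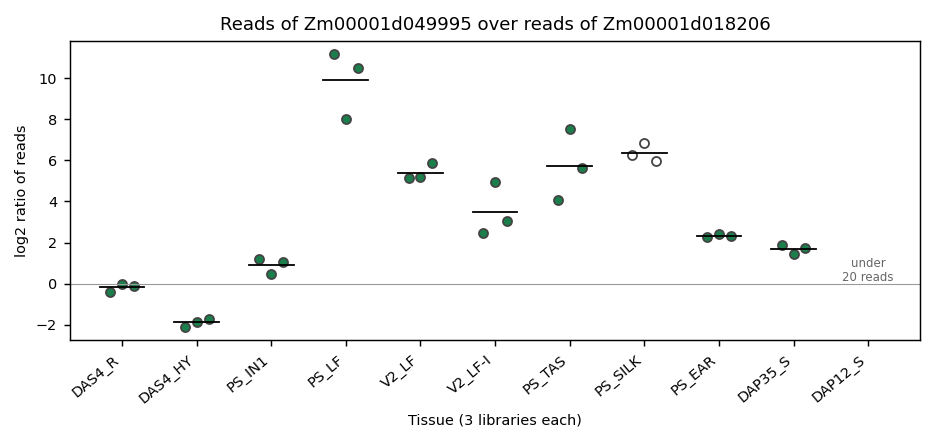
Log2 ratio of the reads of Zm00001d049995 over those of Zm00001d018206 (0.5 reads added to both) by tissue. Points are libraries, bars are means of 3 libraries, and open points are PS_SILK, where Zm00001d018206 is at 0 reads; the means run between 9.90 in PS_LF and -1.89 in DAS4_HY, and DAP12_S had under 20 reads of the pair.

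The nitrite reductase Zm00001d052164 was read in all 33 libraries, but with 1654 reads in all. It was highest in V2_LF, with 8.17, 10.6 and 19.3 CPM from 81, 116 and 185 reads. After TMM scaling, each was above all libraries of the other tissues. Library size alone left the mean of V2_LF highest, at 6.10 CPM. Its range of 3.93 to 9.29 CPM then overlapped with roots (3.31 to 4.91 CPM) and PS_LF (3.095 to 4.33 CPM). V2_LF-I was lower, at 1.496, 2.292 and 3.23 CPM (log2 fold change of V2_LF over V2_LF-I 2.42, SE 0.36, adjusted p = 1.32e-06). PS_LF, at 3.61, 3.98 and 5.41 CPM, lay below all V2_LF libraries (log2 fold change -1.55, SE 0.35, adjusted p = 0.000607), although with library size alone the value was -0.79 and the call was lost (adjusted p = 0.0627). Roots were at 2.58, 3.13 and 3.63 CPM, against 1.00, 1.16 and 0.862 CPM in hypocotyls. The ranges were apart, and the gene was higher in roots (log2 fold change 1.62, SE 0.35, adjusted p = 0.000549). Compared with V2_LF, roots were lower (log2 fold change -2.03, SE 0.35, adjusted p = 1.03e-05), a call that was lost with library size alone (-0.56, adjusted p = 0.155).

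At pollen shed, the nitrite reductase was 6.88-fold lower in the internode (0.765, 0.529 and 0.596 CPM) than in PS_LF, and no library overlapped (log2 fold change -2.77, SE 0.38, adjusted p = 5.33e-07). Tassels were at 0.879, 1.57 and 1.44 CPM, against 0.325, 0.421 and 0.275 CPM in ears. All tassel libraries were higher (log2 fold change 1.91, SE 0.40, adjusted p = 0.000125), but this call was lost with library size alone (0.83, adjusted p = 0.0681). Silks were at 0.685, 0.264 and 0.200 CPM from 21, 8 and 5 reads and overlapped with ears (log2 fold change 0.18, SE 0.42, adjusted p = 0.773). The direction of this value flipped to -0.29 with library size alone and to -0.55 without silk replicate 1. The older seed, at 0.446, 0.388 and 0.428 CPM, overlapped with the younger seed, at 0.289, 0.391 and 0.186 CPM (log2 fold change 0.53, SE 0.46, adjusted p = 0.376), and the sign turned with library size alone (-0.093). In order of the means, the ranges of neighbours were apart between V2_LF and PS_LF, between DAS4_HY and PS_IN1 and between PS_IN1 and DAP35_S, and overlapped elsewhere.

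Over the 11 tissue means, the log2 levels of Zm00001d049995 and the nitrite reductase had a Pearson's r of 0.91 and a Spearman's rho of 0.89. Zm00001d018206 had r = 0.63 (rho = 0.65) with the nitrite reductase and r = 0.52 (rho = 0.62) with Zm00001d049995. Zm00001d054060 had r between -0.36 and 0.23 with the 3 reductases, and Zm00001d054057 between -0.004 and 0.33. These values describe 11 points that share libraries and scaling, and those of the transporters rest on few reads. Roots lay above the trend of the 2 reductases, with 3.11 CPM of nitrite reductase and 17.3 CPM of Zm00001d049995, whereas the internode had 0.630 CPM and 18.6 CPM.

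**Figure D3:**
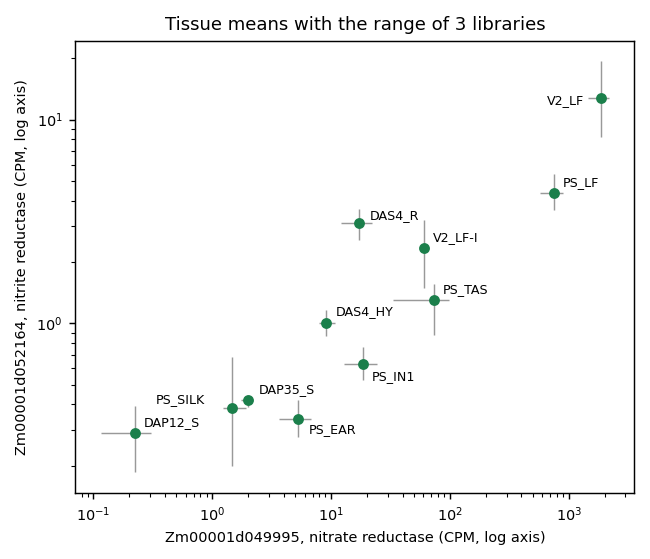
Mean level of the nitrite reductase Zm00001d052164 against that of the nitrate reductase Zm00001d049995 in 11 tissues (CPM, log axes). Points are means of 3 libraries and lines are the range of the libraries; both genes were highest in V2_LF and lowest in DAP12_S, and Pearson's r over the 11 points on the log2 scale was 0.91.

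Set side by side, the 4 tested genes gave these counts of calls at an adjusted p under 0.05, against the share of all 28997 tested genes that were called. Zm00001d054060 was among the 4 only through its reads in roots and the internode. In DAS4_R against DAS4_HY, 3 of 4 were called, all higher in roots, with 43.4% of all genes called. In V2_LF against V2_LF-I, the 3 reductases were called, all higher in the expanded blade, with 65.5% of all genes called. In PS_LF against V2_LF, the 3 reductases were called, all lower in PS_LF, with 46.4% of all genes called. With library size alone, 1 call was left there, with 59.1% of all genes called. In DAS4_R against V2_LF, all 4 were called, with 72.1% of all genes called, and the transporter Zm00001d054060 was the 1 that was higher in roots. With library size alone, 2 of these 4 calls were left, with 82.1% of all genes called. Comparisons that share V2_LF are not independent of each other.

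At pollen shed, PS_IN1 against PS_LF gave 4 calls of 4, with 58.7% of all genes called. Here Zm00001d054060 and Zm00001d018206 were higher in the internode, and Zm00001d049995 and Zm00001d052164 were lower. PS_TAS against PS_EAR gave 3 calls of 4, with 73.9% of all genes called, including that of Zm00001d054060, which was not detectable at this depth. With library size alone, 2 calls were left there, with 80.3% of all genes called. PS_SILK against PS_EAR gave 2 calls, both of nitrate reductases lower in silks, with 52% of all genes called. DAP35_S against DAP12_S gave 2 calls, with 44% of all genes called, for Zm00001d049995 (higher in the older seed) and Zm00001d054060 (lower). Calls were common among all genes in each of these comparisons, and nothing particular to the nitrate genes was read from the counts.

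**Figure D4:**
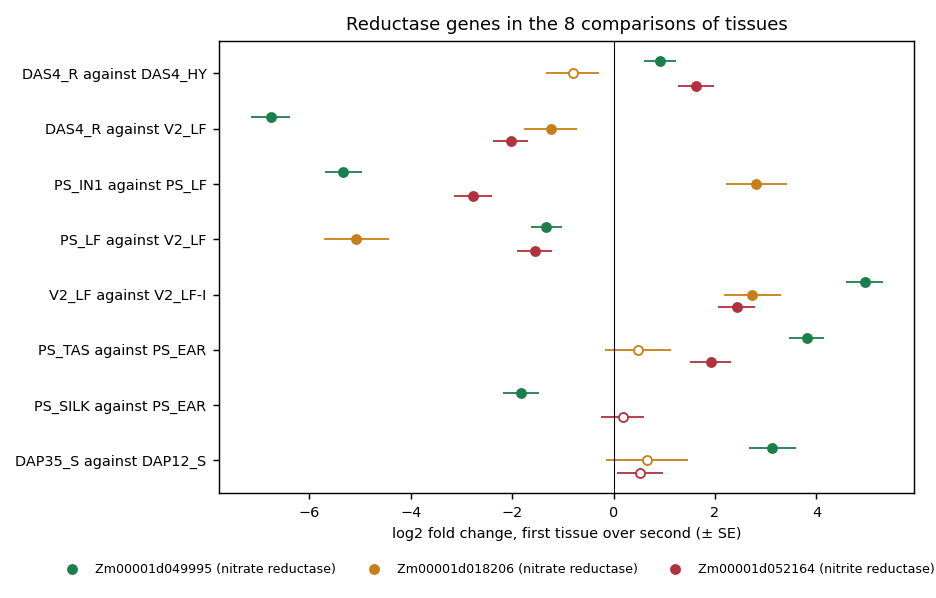
Log2 fold change (± SE) of the 3 reductase genes in the 8 comparisons, the first tissue over the second. Filled points have an adjusted p under 0.05, the value of Zm00001d018206 in silks (0 reads) is left out, and with library size alone the value of Zm00001d018206 in DAS4_R against V2_LF turns to 0.23 and 4 further filled points lose the call (Zm00001d049995 and Zm00001d052164 in PS_LF against V2_LF, and Zm00001d052164 in DAS4_R against V2_LF and in PS_TAS against PS_EAR).

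Each tissue was also set against the mean of the log levels of the other 10, and a gene was called where its log2 fold change was past 2 in size with an adjusted p under 0.05. This contrast is undefined for a gene with 0 reads in a whole tissue and is given for Zm00001d049995 and Zm00001d052164, which had reads in every library. Both were called higher in V2_LF, with log2 fold changes of 7.38 (SE 0.16, adjusted p = 2.2e-24) and 3.78 (SE 0.20, adjusted p = 1.7e-15), where 27.5% of all genes were called. Both were also called in PS_LF (5.91 and 2.07, with 23.4% of all genes called) and, in the other direction, in DAP12_S (-6.93 and -2.19, with 17.1% of all genes called). The nitrite reductase fell under the limit of 2 without PS_LF replicate 3 (1.88) and without DAP12_S replicate 3 (-1.96), and with library size alone in both tissues (1.74 and -1.75).

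Zm00001d049995 alone was called higher in PS_TAS (2.23, with 22.4% of all genes called), but not without PS_TAS replicate 3 (1.95) or with library size alone (1.63). It was called lower in PS_SILK (-3.97, with 16.1% of all genes called) and in DAP35_S (-3.49, with 18% of all genes called). The nitrite reductase had -1.74 in PS_SILK, and -2.46, a call, without silk replicate 1. In the 5 other tissues, edgeR called neither gene, and DESeq2 called none either. Of the 10 values, 7 had an unadjusted p under 0.05 in edgeR. These 7 also had an adjusted p under 0.05, at most 0.00735. They missed the call in these tissues because their log2 fold change was not past 2 in size. The shares of all genes called there were 14.7% in DAS4_HY, 20.8% in DAS4_R, 16.1% in PS_EAR, 14.5% in PS_IN1 and 17% in V2_LF-I. In PS_EAR, Zm00001d049995 was at -1.97 and reached -2.17, a call, without PS_EAR replicate 1, and the nitrite reductase was at -1.93 and reached -2.12, a call, without PS_EAR replicate 2. With library size alone, Zm00001d049995 was called in V2_LF-I (2.01, and 1.93 with TMM) and the nitrite reductase in DAS4_R, where TMM gave 1.55.

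The pollen-shed plants were harvested on 2 dates, with replicate 1 of 4 tissues on 25 November and replicates 2 and 3 on 28 November, so that the date cannot be told apart from the plant within a tissue. Silks carry no date in their labels. Over these 12 libraries, with tissue as a covariate, edgeR called none of the 3 nitrate genes tested, with 0.094% of 26609 genes called. No member had an unadjusted p under 0.05 either, and DESeq2 called none. The log2 fold changes of the later over the earlier date were 0.13 (SE 0.32, adjusted p = 0.901) for Zm00001d049995, 0.03 (SE 0.62, adjusted p = 0.989) for Zm00001d018206 and 0.21 (SE 0.26, adjusted p = 0.788) for Zm00001d052164. The sign of the first pair of values turned when certain libraries were left out, such as PS_LF replicate 1 (-0.03 and -0.54) and PS_TAS replicate 1 for Zm00001d049995 (-0.26). With the date as a covariate, the calls of these genes in PS_IN1 against PS_LF and in PS_TAS against PS_EAR remained on their side of the threshold.

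Within tissues, Zm00001d049995 was at 87.3 and 98.9 CPM in the tassels of 28 November, against 33.3 CPM on 25 November. It was at 898 and 768 CPM in the later adult leaves, against 576 CPM in the earlier one. In contrast, the later internodes had 12.8 and 18.6 CPM, against 24.3 CPM in the earlier one, and the later ears 5.26 and 3.68 CPM, against 6.79 CPM in the earlier one. The interaction of tissue and date had an unadjusted p of 0.00521 for this gene and did not pass after adjustment (adjusted p = 0.154, with 0.357% of genes called). That was 1 of 3 nitrate genes at an unadjusted p under 0.05, and edgeR called none.

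**Figure D5:**
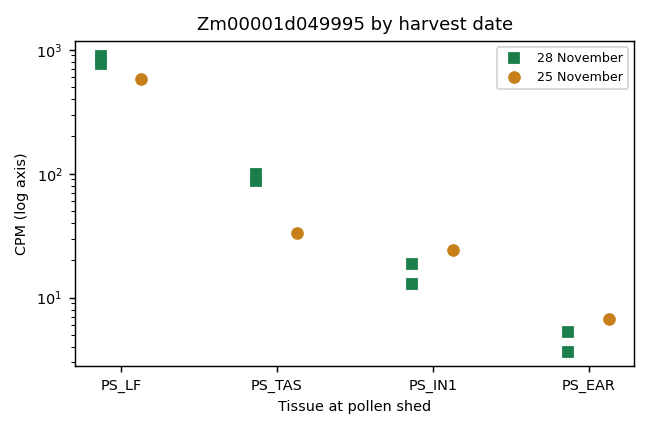
Level of Zm00001d049995 (CPM, log axis) in 4 tissues at pollen shed whose labels give a date, 2 libraries of 28 November (squares) and 1 of 25 November (circle) for each tissue. The later libraries are above the earlier one in PS_LF and PS_TAS and below it in PS_IN1 and PS_EAR; the interaction did not pass the test (adjusted p = 0.154).

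The genes with the tissue pattern most like each member were found by Pearson's r over the 11 tissue means of log2 CPM, among 21286 candidates. For Zm00001d049995 they were Zm00001d025526 (r = 0.98, highest in PS_LF at 155 ± 7.0 CPM, SD, n = 3) and Zm00001d008017 (r = 0.98, highest in V2_LF at 52.5 ± 7.0 CPM, SD, n = 3), and 272 genes had an r over 0.9. For the nitrite reductase they were Zm00001d039677 (r = 0.97) and Zm00001d028472 (r = 0.96), both highest in V2_LF, and 62 genes had an r over 0.9. Zm00001d018206 had 4 such genes, led by Zm00001d012090 (r = 0.94, highest in DAS4_R at 171 ± 20.7 CPM, SD, n = 3) and Zm00001d038003 (r = 0.92, highest in V2_LF). The transporters, with few reads, had Zm00001d037249 (r = 0.95) and Zm00001d030391 (r = 0.93) nearest to Zm00001d054057, both highest in roots. Zm00001d027826 (r = 0.91) and Zm00001d047439 (r = 0.91) were nearest to Zm00001d054060, and both were highest in the internode. Their means varied little, from 83.4 CPM to 44.2 CPM in V2_LF-I and from 25.4 CPM to 15.3 CPM in V2_LF. Zm00001d054060 itself was highest in roots, at 0.530 CPM, and at 0 reads in whole tissues. With 11 points and this many candidates, such values are a description.

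Further genes with annotations to nitrogen processes were taken from the study's GO terms, in a shortened copy. The lists that failed as a check of the tissue labels came from the same source. The annotations themselves were not checked, so a role of these genes in the pathway was not tested. Of 10 genes annotated to nitrate transport, none of them among the 5, 7 were tested. In DAS4_R against DAS4_HY, 2 were higher and 1 was lower, with a median log2 fold change of 0.10, and of all genes tested 22.7% were higher and 20.7% lower (median 0.02). In V2_LF against V2_LF-I, 2 were higher and 5 lower (median -0.81), and of all genes 31.3% were higher and 34.2% lower (median 0.00). Scaled by library size alone, these shares of all genes in the leaves turned to 14% and 56.9% (median -1.09) and the list's counts to 1 higher and 6 lower. Examples were Zm00001d018421, at a mean of 5.40 CPM in V2_LF and 46.9 CPM in V2_LF-I, and Zm00001d009912, at 20.7 CPM in V2_LF and 14.6 CPM in V2_LF-I. Zm00001d016054 did not pass the filter and had its highest mean, 0.263 CPM, in roots.

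In DAS4_R against V2_LF, 4 of the 7 nitrate transport genes were higher and 0 lower (median 0.99), and of all genes 41.6% were higher and 30.5% lower (median 0.32). Under library size alone, these became 6 and 0 of the list and 67.7% and 14.5% of all genes. In PS_IN1 against PS_LF, 5 were higher and 1 was lower (median 0.78), against 31% and 27.7% of all genes, and with library size alone 6 and 0, against 46.9% and 17.4%. In PS_TAS against PS_EAR, 2 were higher and 5 lower (median -0.35), against 39.8% and 34% of all genes, and with library size alone 1 and 6, against 24.3% and 56%. PS_LF against V2_LF gave 2 higher and 0 lower, PS_SILK against PS_EAR 1 and 0, and DAP35_S against DAP12_S 1 and 2. The shares of all genes in these were 23.4% and 23% in the leaves, 24.7% and 27.4% in silks and ears, and 21.5% and 22.4% in the seeds. Without TMM factors, the list gave 6 and 0, 0 and 2, and 0 and 5 in the same order, and all genes gave 48.9% and 10.3%, 14.2% and 45.8%, and 10.6% and 48.2%. Nothing particular to nitrate transport was read from these counts.

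Of 5 genes annotated to glutamate metabolism, which takes up the ammonium that nitrite reductase yields, 4 were tested, and their counts stand against the same shares of all genes. They gave 1 higher and 1 lower in DAS4_R against DAS4_HY (median 0.15), 0 and 3 in V2_LF against V2_LF-I (-1.61), 0 and 1 in PS_LF against V2_LF (0.07), and 2 and 1 in DAS4_R against V2_LF (0.81). They gave 2 and 2 in PS_IN1 against PS_LF (0.17), 0 and 3 in PS_TAS against PS_EAR (-2.76), 3 and 1 in PS_SILK against PS_EAR (1.00) and 3 and 0 in DAP35_S against DAP12_S (1.39). The sign of the list's median was the same in all 8 comparisons with library size alone, but counts changed. They became 3 and 1 in PS_LF against V2_LF, 3 and 0 in DAS4_R against V2_LF, and 2 and 0 in PS_IN1 against PS_LF. They also became 0 and 4 in PS_TAS against PS_EAR, 2 and 1 in PS_SILK against PS_EAR, and 2 and 0 in DAP35_S against DAP12_S. The 4 tested genes annotated to the response to nitrogen starvation gave 0 and 0 in DAS4_R against DAS4_HY (0.22), 1 and 3 in V2_LF against V2_LF-I (-1.92), 0 and 1 in PS_LF against V2_LF (0.52), and 3 and 1 in DAS4_R against V2_LF (1.21). They gave 2 and 0 in PS_IN1 against PS_LF (1.53), 0 and 2 in PS_TAS against PS_EAR (-1.56), and 0 and 1 both in PS_SILK against PS_EAR (-0.53) and in DAP35_S against DAP12_S (-0.52). With library size alone, these became 0 and 3 in V2_LF against V2_LF-I, 2 and 1 in PS_LF against V2_LF, and 4 and 0 in DAS4_R against V2_LF. They also became 0 and 3 in PS_TAS against PS_EAR, 0 and 4 in PS_SILK against PS_EAR, and 0 and 2 in DAP35_S against DAP12_S. All genes then had the shares given above for library size alone. With 4 genes to a list, these counts are a description.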

How the data were processed

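Leaf, root, stem, flower and seed RNA of B73 was sequenced as polyA-selected, stranded paired-end libraries. The authors used Trimmomatic for trimming, sortMeRNA against ribosomal RNA, and STAR (version not given in the sources used here) for alignment to AGPv4, named B73 RefGen_v4 in the submitters' processing notes. The deposited files hold raw counts of reads per gene for both strands together and for each strand. The reverse column was used, which holds the sense strand of this kit. Lines that name no gene (10.3 to 20.2% of a file, median 12.1%) were left out.

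The members and gene lists were chosen with earlier results of these data known. Counts were scaled by TMM and tested with edgeR 4.0.16 in R 4.3.3 by the quasi-likelihood F test, 1 fit over 33 libraries with 22 residual degrees of freedom, after filterByExpr (minimum count 10, minimum total 15), with Benjamini-Hochberg adjustment over 28997 genes. Replicates are separate plants or pools. Their chi-square per degree of freedom was 8.01 to 121.9, and no library was a copy of another. The contrast with the other tissues was planned for all members but is undefined for 2 tested ones that a tissue lacks, and is given for the other 2. The reductase ratio was tested by permuting tissue labels over libraries. Named genes were the members, the 2 genes most like each (at least 10 CPM in a tissue), and examples of the lists picked after their values were seen. Scripts were tested on simulated data. The alternatives were DESeq2 1.42.0, no filter, the unstranded column, a replicate block, only the tissues compared, the date as a covariate and each library left out. Scaling by library size alone, and the ratio without silks, were added after seeing the data.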

Additional observations from a re-analysis of the deposited data

Results flagged for a closer look

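The change between harvest dates went in opposite directions among the pollen-shed tissues, with the libraries of 28 November all above or all below that of 25 November. For Zm00001d049995, the log2 fold change of the later over the earlier date was 1.48 in PS_TAS, 0.59 in PS_LF, -0.58 in PS_EAR and -0.65 in PS_IN1. For Zm00001d018206 it was 3.12 in PS_LF, -0.24 in PS_IN1 and -0.69 in PS_EAR. The value in PS_LF rested mainly on replicate 2, with 73 reads against 9 in replicate 3 and 7 in replicate 1. For Zm00001d052164 the log2 fold change was 0.77 in PS_TAS, 0.43 in PS_LF and -0.46 in PS_IN1. The later libraries lay on both sides of the earlier one in PS_TAS for Zm00001d018206 (-0.71) and in PS_EAR for Zm00001d052164 (0.12). The interaction of tissue and date did not pass the test for any of the 3 (adjusted p = 0.154, 0.538 and 0.716 in that order of genes), and each earlier date is 1 plant.

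Reads on the strand opposite to the genes were counted in a column that the comparisons did not use. Zm00001d049995 had 213 such reads over 33 libraries (0.175% of its reads on both strands), of which 90 were in PS_LF replicate 1. Zm00001d018206 had 35 (0.344%). Over all genes, this share was 0.9 to 4.33% in a library.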

How the results depend on the processing

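The direction of the calls among tissue pairs held in DESeq2, without the filter, with the unstranded column, with the block and in fits of only the tissues compared, where a value could be had. With library size alone, members called against the other tissues moved to 1 in DAP12_S, 1 in DAS4_R, 1 in PS_LF, 0 in PS_TAS and 1 in V2_LF-I, and those in DAS4_R against V2_LF to 2 and in PS_LF against V2_LF to 1. The shares of all genes called then were 17.8%, 22.5%, 23.6%, 22.7%, 17.2%, 82.1% and 59.1% in the same order. Members called in PS_TAS against PS_EAR went from 3 to 2 with library size alone (80.3% of all genes called) and in DESeq2 (73.1%). With only the seeds in the fit, DAP35_S against DAP12_S gave 1 call, since Zm00001d054060 did not pass the filter there. Signs reversed with library size alone for Zm00001d018206 in DAS4_R against V2_LF (0.23) and PS_TAS against PS_EAR (-0.67), for Zm00001d049995 in DAS4_R against the others (0.39), for Zm00001d052164 in DAP35_S against DAP12_S (-0.093), PS_SILK against PS_EAR (-0.29), DAS4_HY (0.22) and PS_TAS (-0.44) against the others, and for Zm00001d054060 in PS_SILK against PS_EAR (-0.34). DESeq2 reversed the date value of Zm00001d018206 (-0.0074) and called 3.12% of genes by date, against 0.094% in edgeR. Beyond the shift of the median gene, the cause was not tested.

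Leaving out 1 library, counts against the other tissues ran over 1 to 2 in DAP12_S, PS_LF and PS_SILK and 0 to 1 in PS_EAR and PS_TAS. Values that changed sign ran over -0.54 to 0.31 (Zm00001d018206) and -0.26 to 0.45 (Zm00001d049995) by date, over -0.29 to 0.14 in DAS4_R and -0.20 to 0.25 in PS_IN1 against the others (Zm00001d049995), and in PS_SILK against PS_EAR over -0.55 to 0.47 (Zm00001d052164) and -0.37 to 0.54 (Zm00001d054060). The F of the reductase ratio ran over 16.8 to 130.3 without 1 replicate number. Replicate numbers were not taken as pairs, because correlations of same-numbered deviations were not all over 0.1 in any comparison. They were 0.224, -0.052 and 0.106 for DAS4_R and DAS4_HY, and 0.278, 0.253 and 0.099 for PS_SILK and PS_EAR. With 3 values to a comparison, this does not show that the samples were unpaired. With a replicate block, members called in DAS4_R against V2_LF were 3 of 4, as Zm00001d018206 had an adjusted p of 0.0531, and no other count changed. By date, number and date overlap and no block was fitted. The transporters, with few reads, are limited by depth.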
